A study of Mus musculus with 4 samples.

Results

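The nuclear genes of the mitochondrial ribosome were examined in polymorphonuclear myeloid-derived suppressor cells (PMN-MDSCs), the immature neutrophil-like cells that restrain immune responses in the newborn. Genes were chosen by symbol, as every gene named Mrpl or Mrps with a number and at most 1 further letter. Of the 28585 genes listed, 78 met this rule, 49 Mrpl genes and 29 Mrps genes. The data were 4 bulk RNA sequencing libraries of PMN-MDSCs that were sorted from spleen on postnatal day 7, with 300000 cells each, all on the C57BL/6J background. In the 2 libraries labelled Dhps cko, the mice carried floxed Dhps alleles together with Lysm cre, a Cre recombinase driven by the Lysm (Lyz2) locus, which is active in neutrophils, monocytes and macrophages. The 2 libraries labelled Dhps flox came from mice with the floxed alleles and no Cre. Both groups therefore shared the floxed alleles, and Lysm cre acts in the myeloid lineage as a whole, not in PMN-MDSCs alone.

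Mitochondria keep a small genome of their own, and the proteins it encodes are translated inside the organelle by a dedicated ribosome, the mitoribosome. Its rRNAs are mitochondrial, whereas all of its proteins are encoded in the nucleus, translated by cytosolic ribosomes and imported. Some of these proteins descend from bacterial ribosomal proteins, and others are found in mitochondria alone. The proteins made by the mitoribosome are subunits of the respiratory chain and ATP synthase. Dhps encodes deoxyhypusine synthase, which catalyses the first step in making hypusine on the translation factor eIF5A, and hypusinated eIF5A is known for helping cytosolic ribosomes through runs of proline.

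In Dhps cko the targeted gene Dhps was at 2.38 and 2.59 FPKM, and in Dhps flox it was at 3.57 and 3.11 FPKM (log2 fold change -0.41, adjusted p = 0.63, limma). FPKM count fragments relative to the length of the transcript and the depth of the library. The libraries summed to between 304281 and 319286 FPKM and held between 10611 and 10729 genes at 1 FPKM or more. Their depths could be estimated only roughly, at 29400000 to 31600000 mapped fragments. The 10 neutrophil markers, among them S100a8 and Ly6g, summed to between 45780 and 51392 FPKM in each library. The study's methods give the sorting gate for these cells as positive for CD11b and Ly6G with low or no Ly6C, which B cells and T cells as a rule do not meet. Markers of other cells were present at lower sums, and several were higher in Dhps cko. The 8 B cell markers summed to 67.5 and 70.4 FPKM in Dhps cko and to 43.2 and 52.4 FPKM in Dhps flox, and the 10 monocyte and macrophage markers to 349.7 and 347.7 against 288.1 and 284.3 FPKM. The 8 T cell markers summed to 16.91 and 14 against 11.4 and 7.62 FPKM and the 6 eosinophil markers to 12.6 and 10.95 against 8.96 and 8.95 FPKM. The 5 genes of primary granules, made early in neutrophil maturation, summed to 81.3 and 54.5 against 46.3 and 56.5 FPKM and overlapped, as did the 12 cell cycle genes at 437 to 483 FPKM and the 8 erythroid markers at 608 to 916 FPKM. The part of these cells in the values below was not tested, and in bulk RNA fewer cells of a type and less RNA per cell cannot be told apart.

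All 78 genes were detected in every library, and all passed the filter of a mean of 0.1 FPKM that defined the 17948 genes tested. Their median level was 2.73 FPKM, which placed the median member at percentile 56.6 of the genes tested. The levels spanned 60-fold, from 0.352 FPKM for Mrps6 to 21.1 FPKM for Mrpl18. A mean of 1 FPKM was reached by 69 genes and a mean of 10 FPKM by 8, and the 10 highest genes held 41.0% of the summed FPKM of the family. For comparison, the 15 rRNAs and mRNAs of the mitochondrial genome had a median of 339 FPKM and the 87 cytosolic ribosomal protein genes a median of 30.7 FPKM.

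**Figure D1:**
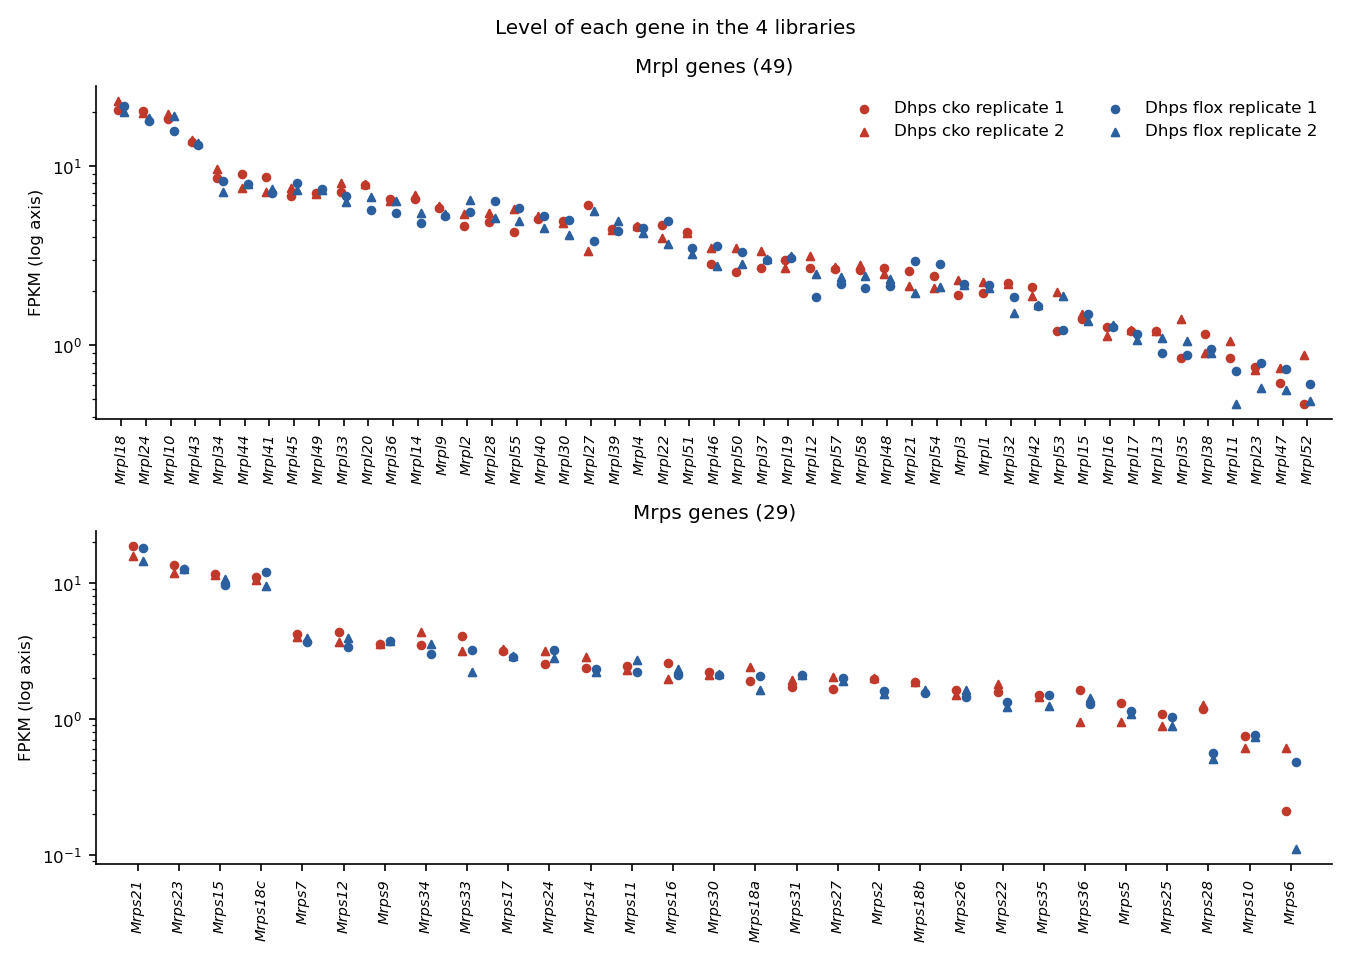
FPKM (log axis) of each of the 49 Mrpl and 29 Mrps genes, ordered by mean, in the 2 Dhps cko libraries (red) and the 2 Dhps flox libraries (blue), with circles for replicate 1 and triangles for replicate 2. The order of the genes spans 60-fold, and for most genes the 4 points lie close together.

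Mrpl18, the homologue of the bacterial L18 protein, was the most abundant member, at 20.39 and 22.86 FPKM in Dhps cko and 21.48 and 19.81 FPKM in Dhps flox. Mrpl24, a protein of the polypeptide exit tunnel, was at 20.10 and 19.55 FPKM in Dhps cko and 17.67 and 18.52 FPKM in Dhps flox. Mrpl10, which anchors the stalk that recruits translation factors, was at 18.14 and 19.40 against 15.55 and 18.82 FPKM. The range of Mrpl24 overlapped those of the other two, whereas every library of Mrpl18 was above every library of Mrpl10. Mrps21, the most abundant Mrps gene, was at 18.58 and 15.87 FPKM in Dhps cko and 14.54 to 18.08 FPKM in Dhps flox, within the range of the same 3 genes or just below it. The next Mrps genes were Mrps23 with a mean of 12.63 FPKM, Mrps15 with 10.84 FPKM and Mrps18c with 10.80 FPKM, after which the level dropped to 3.94 FPKM for Mrps7. Among the Mrpl genes, Mrpl43 had a mean of 13.45 FPKM and Mrpl34 a mean of 8.36 FPKM.

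At the other end were Mrps6, Mrpl52 and Mrpl47. Mrps6, the homologue of bacterial S6, was at 0.21 and 0.61 FPKM in Dhps cko and at 0.48 and 0.11 FPKM in Dhps flox, which corresponds to about 3 fragments in the lowest library. Of its exon bases 19.9% are shared with Gm49711 or Slc5a3. The values of Mrps6 overlapped between the groups. Across the 78 genes, the median coefficient of variation between the 2 replicates was 8.09% in Dhps cko and 8.26% in Dhps flox. The estimated fragments of a gene in its lowest library had a median of 143, and 23 genes had over 200 fragments in every library. All fragment numbers given here rest on the rough depths, as read counts were not recovered.

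No member passed the adjusted threshold in the comparison of Dhps cko with Dhps flox. By limma with Benjamini-Hochberg adjustment over all 17948 genes, 0 of 78 members had an adjusted p under 0.05, beside 1 gene (0.00557%) of all those tested. An unadjusted p under 0.05 with a higher level in Dhps cko was found for 4 members, Mrps28, Mrpl14, Mrpl20 and Mrpl51. That is 5.13% of members, beside 4.72% of all genes tested. An unadjusted p under 0.05 with a lower level was found for 0 members, beside 2.28% of all genes. Without Dhps cko replicate 1, or without Dhps cko replicate 2, 1 member in place of 4 had an unadjusted p under 0.05. Among all genes, 847 were higher and 410 lower at this threshold, which became 628 and 486 after rescaling to TPM and 738 and 511 after quantile normalization.

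The direction of the small differences was uneven. The log2 fold change was above 0 for 57 of the 78 members (73.1%), beside 52.2% of all genes tested, and its median was 0.08, beside 0.01 over all genes. Among 1841 other coding genes of like level and length, within bounds given below, 63.9% were above 0, with a median of 0.06. Of the 31 members within the same bounds, 17 (54.8%) were above 0, with a median of 0.00. In 26 members (33.3%) both Dhps cko libraries were above both Dhps flox libraries, beside 20% of all genes, and in 6 members (7.69%) both were below, beside 16% of all genes. The fold changes ran from -0.25 for Mrpl2 to 1.06 for Mrps28, and the interquartile range was -0.02 to 0.21. The scale of the libraries bears on these counts. After rescaling to TPM, 45 members were higher and 33 lower, the median was 0.05 and that of all genes -0.02, and after quantile normalization 49 were higher and 29 lower. Across all genes the balance turned, as 16.2% were higher and 20.1% lower in both Dhps cko libraries after rescaling to TPM, beside 24 and 8 members. After quantile normalization these shares were 17.4% and 19.1%, beside 23 and 7 members. Counts of separated genes moved when 1 library was left out. Without Dhps cko replicate 1, 41 members were higher and 14 lower in the remaining Dhps cko library than in both Dhps flox libraries, and without Dhps cko replicate 2 these counts were 41 and 18. Without Dhps flox replicate 1, 41 members were higher and 8 lower in both Dhps cko libraries than in the remaining Dhps flox library, and without Dhps flox replicate 2 the counts were 35 and 18. With 1 library in a group separation was more frequent among all genes too, at 32.3% to 37.1% higher and 26.7% to 34% lower. The median of the members was 0.051 without Dhps flox replicate 2 and 0.117 without Dhps flox replicate 1.

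Summed over the family, the members reached 349.5 and 350.5 FPKM in Dhps cko and 331.8 and 325.6 FPKM in Dhps flox. The Dhps cko libraries were both above the Dhps flox libraries, with means of 350.0 ± 0.75 and 328.7 ± 4.36 FPKM (SD, n = 2 libraries each), a level of 106% of Dhps flox. An exact permutation test, two-sided, gave p = 0.33, which is the smallest p that 2 libraries against 2 allow. As TPM, the sums were 1112 and 1098 against 1051 and 1070, or 104%.

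**Figure D2:**
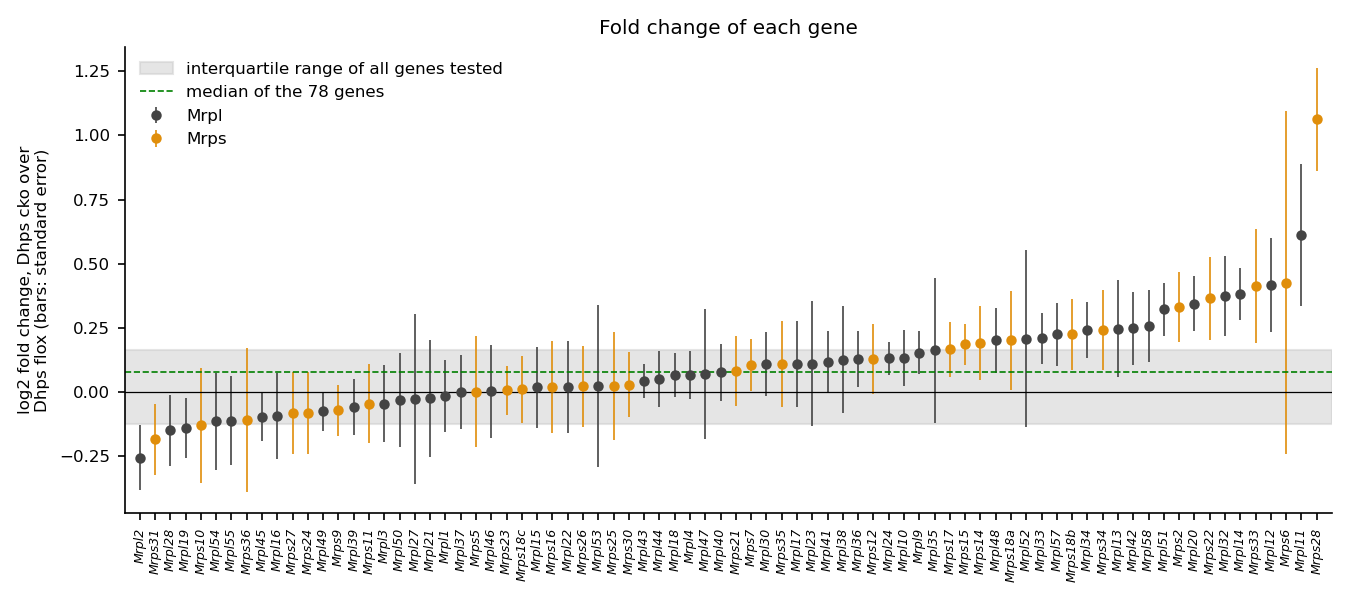
Log2 fold change of each of the 78 genes, Dhps cko over Dhps flox, with its standard error from limma (bars), beside the interquartile range of all 17948 genes tested (grey band) and the median of the 78 genes (dashed line). Most genes lie within 0.25 of 0, Mrps28 stands at 1.06, and Mrps6 has a standard error of 0.67.

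Mrps28, the small subunit protein related to bacterial S1, had the largest difference. It was at 1.19 and 1.26 FPKM in Dhps cko and at 0.56 and 0.51 FPKM in Dhps flox, a level of 229% of Dhps flox. The groups did not overlap, and replicates lay close together in both. The log2 fold change was 1.06 (standard error 0.20), with an unadjusted p of 0.0032 and an adjusted p of 0.49 from limma. The values rest on few fragments, about 29 and 31 in Dhps cko and 13 and 12 in Dhps flox. The gene (ENSMUSG00000040269) lies on the minus strand of chromosome 3 of GRCm38 from 8802146 to 8923918, with 3 exons that overlap no other gene. The log2 fold change was 0.54 when the pseudocount was 1, and 1.18 when it was 0.01.

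The other 3 members with an unadjusted p under 0.05 belong to the large subunit. Mrpl14, a homologue of bacterial L14 at the face toward the small subunit, was at 6.52 and 6.82 FPKM in Dhps cko and at 4.78 and 5.43 FPKM in Dhps flox (log2 fold change 0.38, standard error 0.10, adjusted p = 0.57 by limma). Of its exon bases 11.2% lie opposite exons of Tmem63b. Mrpl20, a homologue of bacterial L20, was at 7.78 and 7.94 against 5.68 and 6.70 FPKM (0.34 on the log2 scale, and 0.227 without Dhps flox replicate 1). Mrpl51, found in mitochondria alone, was at 4.25 and 4.21 against 3.5 and 3.23 FPKM (0.32 on the log2 scale). In each of the 3 genes both Dhps cko libraries were above both Dhps flox libraries, and the gap between the groups was wider than the spread within either.

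**Figure D3:**
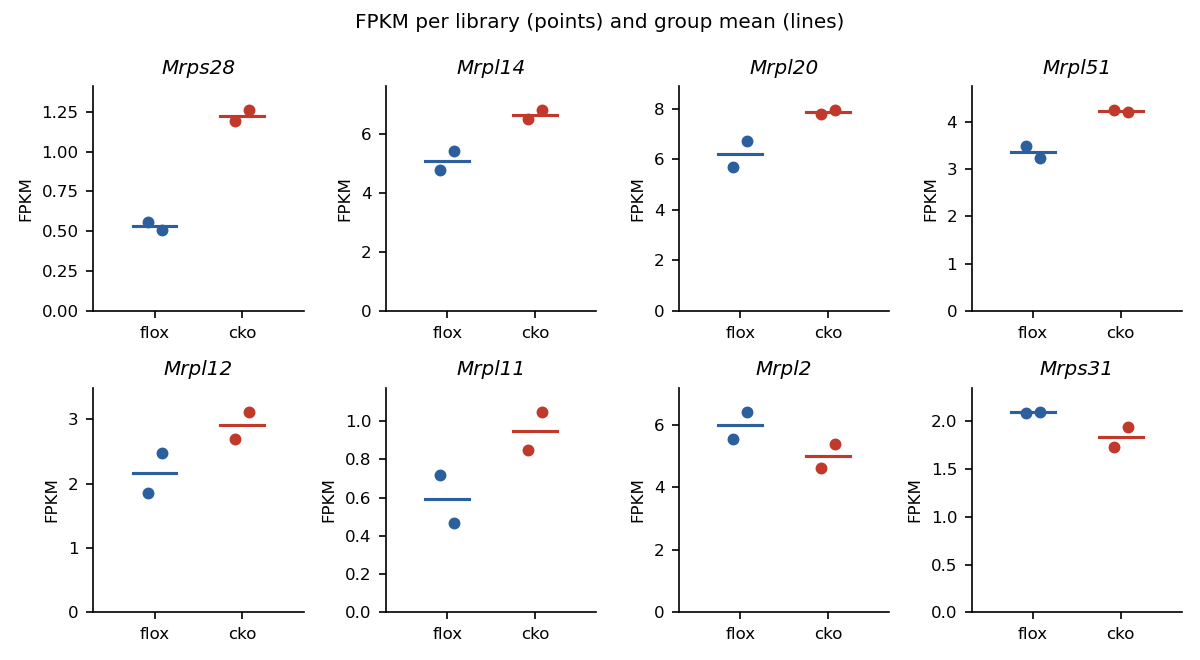
FPKM of 8 members in each library (points) with the group means (lines), for Dhps flox (blue) and Dhps cko (red); each axis starts at 0. The first 6 genes are higher in both Dhps cko libraries and the last 2, Mrpl2 and Mrps31, are lower in both.

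The 3 proteins of the L7/L12 stalk, which bind the GTPases that drive translation, all had positive fold changes with all 4 libraries. Mrpl12 was at 2.70 and 3.12 FPKM in Dhps cko and 1.86 and 2.48 FPKM in Dhps flox (0.42 on the log2 scale, standard error 0.18). Mrpl11 was at 0.85 and 1.05 against 0.72 and 0.47 FPKM (0.61, standard error 0.28), and Mrpl10 had a fold change of 0.13, which turned to -0.005 without Dhps flox replicate 1 and was 0.269 without Dhps flox replicate 2. The groups did not overlap for Mrpl11 and Mrpl12 and did for Mrpl10, and the smallest adjusted p of the 3 was 0.75 (limma). The size of both differences rested on single libraries, since the fold change of Mrpl12 was 0.219 without Dhps flox replicate 1 and that of Mrpl11 was 0.350 without Dhps flox replicate 2. The 5 proteins around the exit tunnel had smaller differences, with a median of 0.05 on the log2 scale (0.019 after rescaling to TPM). Mrpl24 was higher in both Dhps cko libraries, whereas Mrpl22, Mrpl23, Mrpl44 and Mrpl45, the last of which ties the ribosome to the inner membrane, overlapped between groups. The fold change of Mrpl45 was -0.10 and that of Mrpl22 was 0.02, the latter turning to -0.01 after rescaling to TPM and to -0.189 without Dhps flox replicate 2. That of Mrpl45 moved to -0.027 without Dhps cko replicate 1 and to -0.164 without Dhps cko replicate 2.

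Large differences upward at a mean of at least 1 FPKM were also seen in Mrps33 (0.41 on the log2 scale), Mrpl32 (0.37) and Mrps22 (0.37). Mrps33 was at 4.04 and 3.16 FPKM in Dhps cko and 3.19 and 2.21 FPKM in Dhps flox, so its groups overlapped. Mrpl32, a protein that is cut to its mature form inside mitochondria before it joins the ribosome, was at 2.22 and 2.19 against 1.85 and 1.52 FPKM, and Mrps22 was at 1.57 and 1.79 against 1.33 and 1.23 FPKM. Mrps2, the homologue of bacterial S2, was at 1.98 and 2.01 against 1.6 and 1.53 FPKM (0.33 on the log2 scale). None of these 4 genes had an unadjusted p under 0.05. With single libraries left out, the fold change of Mrps33 was 0.159 without Dhps flox replicate 2, 0.242 without Dhps cko replicate 1 and 0.669 without Dhps flox replicate 1, and that of Mrpl32 was 0.241 without Dhps flox replicate 2.

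Mrpl2, a protein close to the site where peptide bonds are formed, had the largest difference downward with all 4 libraries. It was at 4.63 and 5.38 FPKM in Dhps cko and 5.55 and 6.43 FPKM in Dhps flox (log2 fold change -0.25, standard error 0.13, adjusted p = 0.77 by limma). The gap between the groups was smaller than the spread within either. Its place as the lowest rested on single libraries. Without Dhps cko replicate 1 its fold change was -0.148, beside -0.223 for Mrpl54, and without Dhps flox replicate 2 it was -0.150, beside -0.316 for Mrpl54. Mrps31 was at 1.73 and 1.94 against 2.09 and 2.1 FPKM (-0.18) and Mrpl19 at 2.97 and 2.68 against 3.08 and 3.15 FPKM (-0.14). These moved to -0.106 for Mrps31 without Dhps cko replicate 1 and, for Mrpl19, to -0.066 without Dhps cko replicate 2 and -0.210 without Dhps cko replicate 1. Mrpl28, Mrpl54 and Mrpl55 had fold changes between -0.15 and -0.11, and their groups overlapped. Without Dhps flox replicate 1 these turned to 0.002, 0.091 and 0.010, and without Dhps cko replicate 1 that of Mrpl55 was 0.096. The other genes below Dhps flox in both libraries were Mrpl16, Mrpl49 and Mrps9, which were named after their values were seen, with fold changes between -0.09 and -0.07.

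By subunit and by origin the medians lay close together. For both the Mrpl and the Mrps genes the median on the log2 scale was 0.08, with 35 of 49 and 22 of 29 above 0. After rescaling to TPM these counts were 30 of 49 and 15 of 29. By the place of the protein in the ribosome, which moves Mrps30 and Mrps18a to the large subunit, the medians were 0.08 for 51 large and 0.09 for 26 small subunit genes. Large subunit proteins with a bacterial homologue had a median of 0.11 (20 of 29 above 0) and those listed as specific to mitochondria 0.06 (17 of 22 above 0). For the small subunit these medians were 0.09 (12 of 16) and 0.07 (8 of 10). On the TPM scale, 18 and 13 genes of these large subunit classes and 9 and 5 genes of the small subunit classes were above 0. Mrpl47, which was kept in the list of specific proteins, is a homologue of bacterial L29. Mrps18a and Mrps18b were also listed as specific, although their paralog Mrps18c was listed with a bacterial homologue. Differences between these classes were not tested. The 3 MRPS18 paralogs, of which Mrps18a sits in the large subunit and the other two at different places of the small one, had fold changes of 0.20 (Mrps18a, 0.040 without Dhps flox replicate 2, 0.045 without Dhps cko replicate 2 and up to 0.365 without the others), 0.23 (Mrps18b) and 0.01 (Mrps18c, -0.02 after rescaling to TPM and -0.162 without Dhps flox replicate 2), and of these only Mrps18b did not overlap between groups. Mrps30 was at 2.21 and 2.11 FPKM in Dhps cko and 2.1 and 2.13 FPKM in Dhps flox. Mrps36, which carries the name but belongs to the oxoglutarate dehydrogenase complex, was at 1.63 and 0.95 against 1.28 and 1.43 FPKM.

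Other genes of mitochondrial gene expression were read from 4 lists in the same fit, and 0 of their genes had an adjusted p under 0.05. An unadjusted p under 0.05 was found in these 4 lists for Aurkaip1 alone. The 5 measured mitoribosome proteins with other symbols all had positive fold changes, with a median of 0.19. In 3 of them both Dhps cko libraries were above both Dhps flox libraries, beside 20% of all genes. The largest was Aurkaip1, at 18.25 and 16.06 FPKM in Dhps cko and 13.60 and 13.66 FPKM in Dhps flox (0.33 on the log2 scale, unadjusted p = 0.012, adjusted p = 0.56, limma). Of 27 assembly factors, which process the rRNAs and join the subunits, 16 were higher and 11 lower, with a median of 0.03, and after rescaling to TPM 12 were higher and 15 lower. They ranged from -0.68 for Rpusd3 to 0.55 for Mrm3, both under 1 FPKM in every library. Of 18 factors of mitochondrial translation and its products, 12 were higher and 6 lower (median 0.09), from Guf1 at -0.25 to the ribosome recycling factor Mrrf at 0.32. Of 7 genes of mitochondrial transcription 6 were higher (median 0.10), from Tfb2m at -0.12 to Mterf1b at 0.46. Mterf1b has a near-identical copy, Mterf1a, so its level is uncertain.

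The rRNAs and mRNAs of the mitochondrial genome, which the mitoribosome contains and translates, had a median of 0.09 on the log2 scale. It was 0.061 after rescaling to TPM and 0.021 after quantile normalization. The fold change was above 0 for 14 of 15, which became 12 after rescaling to TPM and 10 after quantile normalization. Their sums overlapped between the genotypes, at 9344 and 9651 FPKM in Dhps cko and 9791 and 8169 FPKM in Dhps flox. In 2 of 15 (13.3%) both Dhps cko libraries were above both Dhps flox libraries, beside 20% of all genes. The rRNA mt-Rnr2 was highest, at 0.21, and mt-Nd5 lowest, at -0.01. The 87 cytosolic ribosomal protein genes had a median of 0.17, with 82 above 0 (80 after rescaling to TPM). In 56 (64.4%) both Dhps cko libraries were higher and in 0 both were lower, beside 20% and 16% of all genes. On the TPM scale these counts were 49 and 0, beside 16.2% and 20.1% of all genes. By limma, 22 of the 87 were higher at an unadjusted p under 0.05, beside 4.72% of all genes, and 0 had an adjusted p under 0.05. The difference between the 2 kinds of ribosome was not tested.

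**Figure D4:**
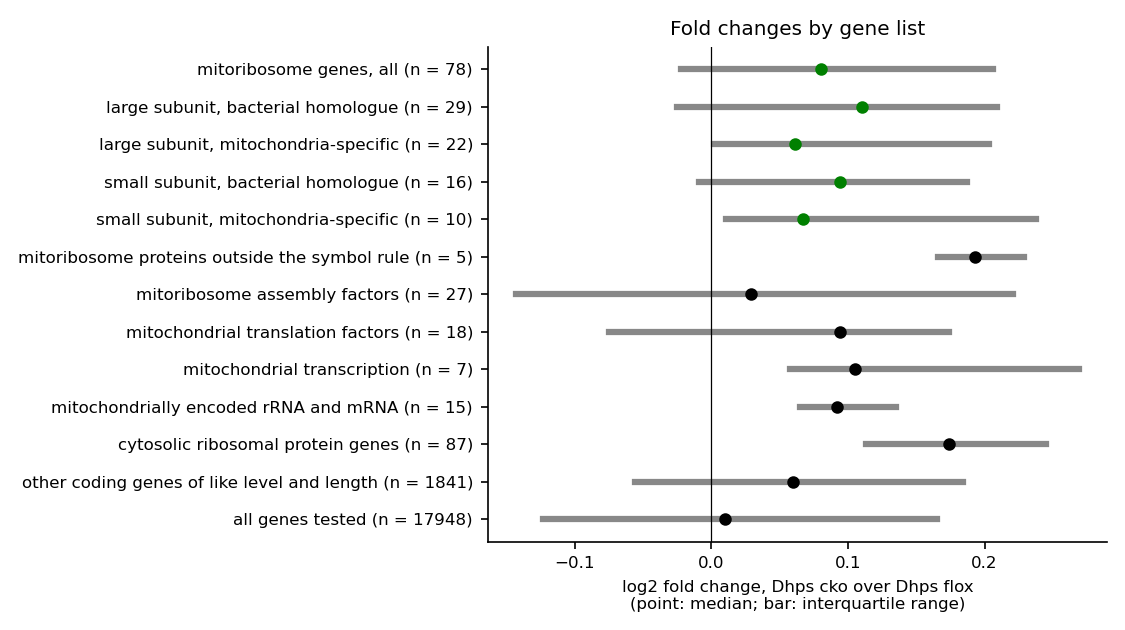
Median log2 fold change (points) and interquartile range (bars) for all 78 members, for 4 classes of members (green), for lists of related genes, for 1841 other coding genes of like level and length, and for all 17948 genes tested (black). The median is 0.08 for the members, 0.17 for the cytosolic ribosomal protein genes and 0.06 for the coding genes of like level and length. The 31 members within the same bounds of level and length, not drawn here, had a median of 0.00.

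Transcript length moved with the fold change. Members are short, with a median transcript of 1327.5 bases, beside 2722 bases for all genes that reached a mean of 1 FPKM. When the latter were divided into 5 groups of equal size by length, the median log2 fold change went from 0.098 in the shortest group to 0.063, 0.022, -0.014 and -0.064 in the longest. The members in these groups numbered 31, 18, 7, 10 and 3, with medians of 0.082, 0.058, 0.19, 0.026 and 0.11. Of 5245 other coding genes with a mean between 0.974 and 9.09 FPKM, the middle levels of the members, 19.2% were higher and 18.4% lower in both Dhps cko libraries, with a median of 0.00. After rescaling to TPM, 788 of the 5245 were higher and 1250 lower, with a median of -0.031. Among the 1841 of them that also shared the members' middle lengths, 919 to 2590 bases, 63.9% had a fold change above 0, 26.4% were higher and 10.8% lower in both libraries, and the median was 0.06 (0.030 after rescaling to TPM). The 31 members within the same bounds had a median of 0.00, with 17 above 0, 8 higher in both libraries and 5 lower in both. Their direction turned with the scaling, as 14 were above 0 after rescaling to TPM and after quantile normalization, and 15 with size factors. The part of length in the fold changes of the members was not tested.

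**Figure D5:**
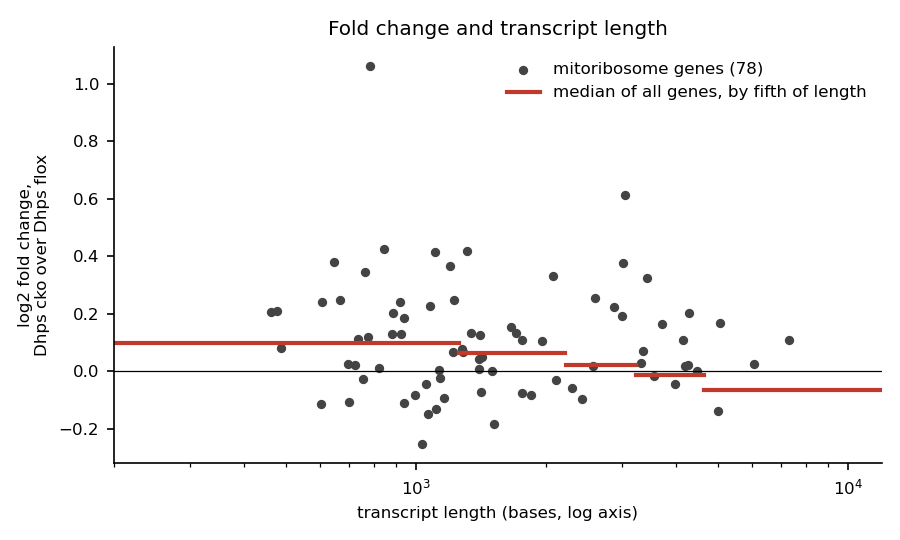
Log2 fold change of the 78 members against transcript length (log axis, cut at both ends), with the median of all genes at 1 FPKM or more in 5 length groups (red lines). The red lines go from 0.098 in the shortest group to -0.064 in the longest, and most members lie in the 2 shortest groups.

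Promoters of these genes were searched for the motifs of factors known to act on nuclear genes of mitochondria. Of the 78 members, 69 had a promoter in the RefSeq table. CCGGAAG, the core bound by ETS factors such as the GA-binding protein, was found on either strand in 26 of them (37.7%), beside 9.93% of all 27025 promoters and 19.5% of those of the genes tested. GCGCATGCG, bound by nuclear respiratory factor 1, was found in 7 (10.1%), beside 1.95% and 3.9%. AAGATGGCG, bound by YY1, was found in 8 (11.6%), beside 1.64% and 3.41%. By contrast TATAAA was found in 5 members (7.25%), beside 15.7% and 9.73%. The GCGCATGCG motif is nearly its own reverse complement, so that both strands can match at overlapping places, and each gene was counted once.

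The following stretches, from RefSeq on GRCm38.p6 and read 5′ to 3′ on the strand of the gene, show an ETS core or an NRF1 motif in capitals before the start of members named above. Mrpl22 carries both motifs next to each other. The stretch of Mrpl43 lies in an intron of a transcript of Twnk, which runs the other way, and the others overlap no annotated gene.
Mrpl22, ETS, chr11:58171591-58171637, plus strand: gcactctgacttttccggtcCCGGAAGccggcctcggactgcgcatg
Mrpl22, NRF1, chr11:58171611-58171659, plus strand: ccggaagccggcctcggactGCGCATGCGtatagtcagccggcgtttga
Mrpl10, NRF1 on the opposite strand, chr11:97041427-97041475, plus strand: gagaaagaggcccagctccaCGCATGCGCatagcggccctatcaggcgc
Mrpl34, ETS, chr8:71464869-71464915, plus strand: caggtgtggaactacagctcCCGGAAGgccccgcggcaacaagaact
Mrpl43, ETS, chr19:45006472-45006518, minus strand: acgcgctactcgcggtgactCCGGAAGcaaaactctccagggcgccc
Mrps22, ETS, chr9:98601680-98601724, minus strand: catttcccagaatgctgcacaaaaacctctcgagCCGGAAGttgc

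The 36 members with at least one of the ETS, NRF1 and YY1 motifs had a median of 0.12 on the log2 scale, with 29 above 0 (22 after rescaling to TPM), 13 higher and 0 lower in both Dhps cko libraries. The 33 with none had a median of 0.05, with 21 above 0 (17 after rescaling to TPM), 10 higher and 5 lower in both. On the TPM scale, 12 members with a motif were higher and 0 lower in both libraries, and 9 and 7 of those with none. The medians on that scale were 0.092 and 0.019. Over all genes, 20% were higher and 16% lower in both libraries, and 16.2% and 20.1% after rescaling to TPM. The difference between members with and without a motif was not tested. Of 8 measured regulators of nuclear mitochondrial genes, 4 were higher and 4 lower, from Gabpa, which encodes the DNA-binding subunit of the GA-binding protein, at -0.15 on the log2 scale to Myc at 0.46. Gabpa was at 13.94 and 13.25 FPKM in Dhps cko and 15.95 and 14.30 FPKM in Dhps flox. None of the 8 passed the adjusted threshold, and Myc had an unadjusted p of 0.040 (limma).

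Members often lay head to head with another gene, with the 5′ ends of both within 1000 bases on opposite strands. This was so for 35 of 78 members (44.9%), beside 2290 of 12592 coding genes tested (18.2%). Mrpl32 starts 75 bases from the proteasome gene Psma2, and Mrpl43 779 bases from Twnk, the mitochondrial DNA helicase. Mrps11 and Mrpl46, named after their values were seen, are members that share such a start region with each other, with 5′ ends 412 bases apart. On the log2 scale, the 35 members with such a neighbour had a median fold change of 0.06 and the 43 without one 0.11. After rescaling to TPM these medians were 0.034 and 0.092. Where strand is not used in counting, reads of a gene and its overlapping partner cannot be told apart. Exon bases were shared with another gene in 33 members, and over 20% of them in 10. The 45 members that share none had a median of 0.11, with 32 above 0 (26 after rescaling to TPM). Processed copies can also take reads. Of the 5 pseudogenes listed, Mrpl23-ps1 was at 3.34 and 2.34 FPKM in Dhps cko and 2.91 and 3.40 FPKM in Dhps flox, above Mrpl23 itself at 0.58 to 0.80 FPKM, so the level of Mrpl23 is uncertain. The same holds for Mrpl27, Mrpl48 and Mrps36, whose copies were at 1.69 FPKM or less in every library.

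Because hypusinated eIF5A acts at proline runs, the coding sequences of the members were searched for them. A run of 3 or more proline codons was found in 8 of 78 members (10.3%), beside 23.2% of 12694 genes tested with a coding sequence and 12.6% of the 6327 whose coding sequence is no longer than the longest of a member, 442 codons. The 8 members were Mrpl10, Mrpl19, Mrpl22, Mrpl38, Mrpl44, Mrpl51, Mrps18b and Mrps30. The runs of Mrpl10 from codon 66, Mrpl44 from codon 54 and Mrps30 from codon 126 were 4 codons long, and not every run is described here, so 4 codons is not given as the longest. The stretches below are from GENCODE M21 on GRCm38, within coding exons, and are read on the strand of the gene. Capitals mark the codons of the run alone, and other proline codons are in lower case. They show the runs of 4 codons that lie within 1 exon, in Mrpl10 and Mrps30, and the shorter run of Mrpl51.
Mrpl10, exon 2 of 5, chr11:97044662-97044691, plus strand: agatgcctgCCACCTCCTCCCaagcccccc
Mrps30, exon 1 of 5, chr13:118386839-118386868, minus strand: gcgctgtcgCCGCCGCCGCCCtcgctcgac
Mrpl51, exon 2 of 3, chr6:125192542-125192568, plus strand: ctcactcttCCACCTCCCaaagtggtt
At the level of mRNA, the median on the log2 scale was 0.09 for the 8 members with a run, with 7 above 0 (5 after rescaling to TPM), and 0.08 for the 70 without one, with 50 above 0 (40 after rescaling to TPM). These libraries measure mRNA and hold no measure of how much of each protein was made.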

How the data were processed

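The 4 libraries, 2 per genotype, were grouped by the genotype in their labels. The deposited values are FPKM per gene (fragments scaled by transcript length and mapped fragments, to 2 decimals), which the authors calculated with StringTie and ballgown after read trimming with Cutadapt and alignment with HISAT2. The submitters' processing notes name the mm10 build. The annotation, the strand setting and any scaling between libraries are not given in the sources used here. FPKM depend on what else a library holds, because fragments taken up by abundant genes lower all other values.

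The genotypes were tested against each other on log2(FPKM + 0.1) by limma 3.58.1 (R 4.3.3), using lmFit followed by eBayes with its trend option, in the 17948 genes whose mean reached 0.1 FPKM. Benjamini-Hochberg adjustment was made over all of them, with a threshold of 0.05 and no replicate block. The fit was run on simulated data with differences put in that were larger than that of any member. That run therefore does not show how the fit performs at differences of the members' size. The pseudocount shrinks the fold changes of low genes. Nothing in the labels says that the libraries came from separate animals, so p-values measure only the spread between these libraries, which may be technical.

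Coordinates, transcript lengths, coding sequences, exon overlaps and neighbouring genes came from GENCODE M21 (GRCm38), which holds 28511 of the 28585 gene identifiers. The transcript length is that of the longest coding transcript. One coding stretch is not reported here. Promoter sequences came from RefSeq (GRCm38.p6), from 250 bases before to 50 bases after each gene's start. The spacing of low FPKM values gave a rough estimate of mapped fragments. The best depth scored 0.111 to 0.138 across the libraries and the runner-up 0.1 to 0.121. The 2 were closest for Dhps cko replicate 1, at 0.111 and 0.106. Of the low values, 37.4% to 39.2% lay within 0.15 reads of a whole number, where chance gives 30%. Read counts were therefore not recovered and no count test was run.

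Genes were named in the text by rule: the 5 highest Mrpl and Mrps genes, the 3 lowest genes, the 6 largest positive and negative fold changes at a mean of at least 1 FPKM, the 6 smallest p-values, and the genes of the stalk, exit tunnel and MRPS18 lists with Mrps30 and Mrps36. In other lists, the largest positive and negative changes were named. The members and lists were chosen with earlier results of these data known. As alternatives, the pseudocount, the filter, the scaling and the variance trend were changed, a replicate block was added, and each library was left out in turn.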

Additional observations from a re-analysis of the deposited data

How the results depend on the processing

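No member had an adjusted p under 0.05 by limma under any of the 13 alternatives, where the smallest adjusted p of a member lay between 0.338 and 0.946. For all genes, the count with an adjusted p under 0.05 was 0 with a pseudocount of 0.01, with no filter on low values and with a replicate block, 2 after TPM scaling and quantile normalization, 4 with a filter of at least 1 FPKM, and 0 to 0 without 1 replicate. Over 10629 genes, replicate 1 deviations of the genotypes had a correlation of -0.0567. With 2 libraries per genotype this cannot tell whether same-numbered libraries were paired, and the labels do not say. With the replicate block, 0 members had an adjusted p under 0.05 by limma and 5 had a higher level at an unadjusted p under 0.05. TPM scaling moved the median of the members to 0.05 and their summed level to 104% of Dhps flox. Without 1 replicate, the median ran from 0.051 to 0.117, the members higher at an unadjusted p under 0.05 from 1 to 5, those higher in both Dhps cko libraries from 35 to 41, and those lower in both from 8 to 18, where 1 library fewer in a group makes separation more frequent by construction and the lone library is assumed to vary like the others. The summed level and the fold change of Dhps were recomputed as alternatives chosen after seeing the data, and ran from 105% to 107% and from -0.507 to -0.314 without 1 replicate.

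For the 37 members named by rule, 28 of 475 fold changes turned sign. Over all 78 members, the number above 0 was 57 as reported, 45 after TPM scaling, 49 after quantile normalization and 53 with size factors. TPM scaling gave -0.011 for Mrpl22, -0.021 for Mrps18c, -0.025 for Mrps23 and -0.002 for Mrps30, size factors -0.003 for Mrps23, and quantile normalization -0.002 for Mrps30. Without 1 replicate, the fold changes ran from -0.005 to 0.269 for Mrpl10, from -0.017 to 0.148 for Mrpl18, from -0.189 to 0.230 for Mrpl22, from -0.091 to 0.313 for Mrpl23, from -0.299 to 0.002 for Mrpl28, from -0.076 to 0.176 for Mrpl44, from -0.103 to 0.245 for Mrpl47, from -0.183 to 0.599 for Mrpl52, from -0.316 to 0.091 for Mrpl54, from -0.318 to 0.096 for Mrpl55, from -0.162 to 0.183 for Mrps18c, from -0.074 to 0.239 for Mrps21, from -0.101 to 0.116 for Mrps23, from -0.003 to 0.061 for Mrps30, from -0.469 to 0.252 for Mrps36 and from -0.306 to 1.160 for Mrps6. The cause of these turns was not tested. The number of fragments, which depends on length as well as FPKM, limits some genes, and 2 libraries per genotype limit all.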
